A study of Triticum aestivum with 4 samples.

Results

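PR5, XIP-I and WGA2 are 3 wheat genes for proteins that act against microbes, and they were followed in seedling roots by the 4 probe sets that carry their names. They were found through the gene symbols and synonyms of the probe annotation, with identifiers looked up in RefSeq, among 771 annotated genes and 61179 probe sets that are not controls. XIP-I (listed as LOC542997) had 2 probe sets, PR5 (LOC543292) had 1 and WGA2 (LOC543494) had 1. RefSeq's gene table (assembly IWGSC CS RefSeq v2.1) places PR5 on chromosome 7D, XIP-I on 4D and WGA2 on 1D. Each probe set, that of PR5 included, may also detect copies of its gene on the other wheat genomes (homoeologues), which was not tested. The genes were chosen by their signals on these same arrays, PEG changes and cultivar differences included, so both are given as descriptions and carry no test.

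Roots came from seedlings with a pair of leaves of 2 common wheat (Triticum aestivum) cultivars, grown in Petri dishes at 25 °C under a 14 h photoperiod. The 4 groups were Luohan No.2 after 6 h in PEG (polyethylene glycol, which lowers the water potential around the root) at -0.49 MPa, Luohan No.2 kept in tap water, Chinese Spring in the same PEG, and Chinese Spring in tap water. Each group was 1 Affymetrix wheat array hybridised with biotin-labelled cRNA, and the labels do not give the number of seedlings in a sample. The design asks how roots of each cultivar respond to osmotic stress and how the cultivars differ in water and in PEG. In whole roots, fewer cells of a type and less RNA per cell cannot be told apart.

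Plants under attack make sets of pathogenesis-related proteins, many of which are secreted to the cell wall space or stored in the vacuole. PR5 belongs to the thaumatin-like proteins, relatives of the sweet protein thaumatin, several of which inhibit fungal growth. Osmotin of tobacco, which accumulates in cells adapted to salt, is a member of the same family. XIP-I is the xylanase inhibitor protein of wheat, which has the fold of a chitinase and blocks fungal xylanases, enzymes that degrade the xylan of the cell wall. WGA2 encodes an isolectin of wheat germ agglutinin, a lectin that binds chitin, the polymer of fungal walls and insect cuticles, and is known from the embryo and from root tips.

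The order of the signals over the 4 arrays differed between the genes. Signals are linear MAS5 intensities in arbitrary units, with each array scaled to a trimmed mean of about 100. Of the 61179 probe sets, 13046 and 13345 were above 100 on the Luohan No.2 PEG and water arrays, and 13462 and 13719 on the Chinese Spring PEG and water arrays. Signals at or below 10.6, the 40th percentile over the 4 arrays, were treated as a floor, since MAS5 values are noisy there. Levels of different probe sets are not compared, because each probe set has its own binding strength.

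**Figure D1:**
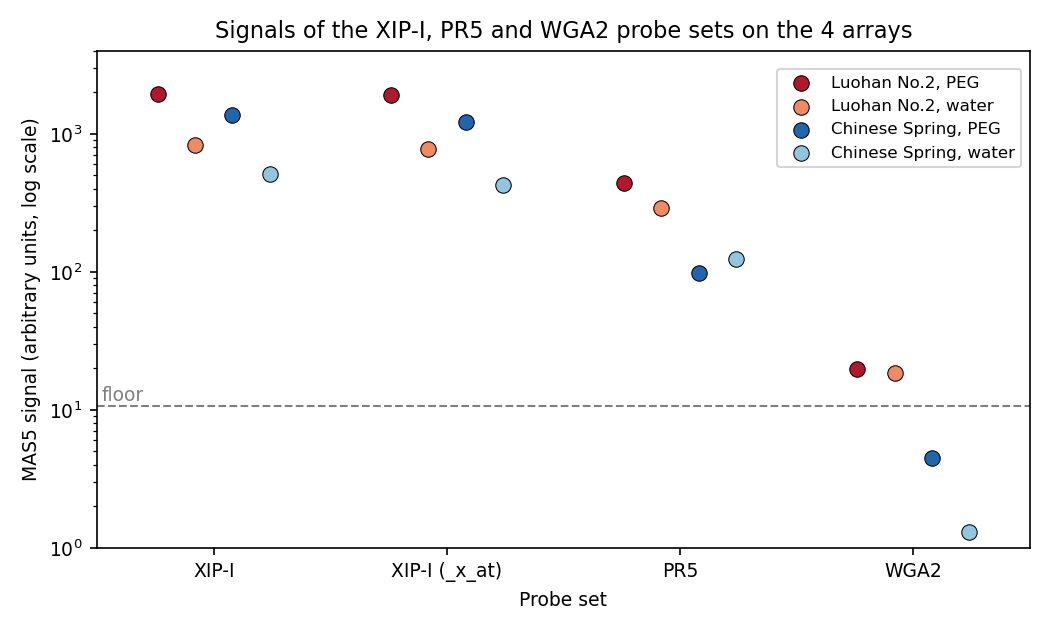
MAS5 signal (arbitrary units, log axis) of the 4 probe sets, 1 point per array, with the floor of 10.6 as a dashed line. Both XIP-I probe sets were higher on the PEG array of each cultivar, PR5 was higher on both Luohan No.2 arrays, and WGA2 was above the floor only on the Luohan No.2 arrays.

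XIP-I was higher in PEG in both cultivars. Its brighter probe set had signals of 1943.3 in PEG and 824.1 in water in Luohan No.2, and of 1368.2 in PEG and 510.7 in water in Chinese Spring. The order over the 4 arrays was therefore Luohan No.2 PEG, Chinese Spring PEG, Luohan No.2 water and Chinese Spring water. Both PEG arrays lay above both water arrays, and within each condition the Luohan No.2 array was the higher.

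The PEG signal of this probe set was 2.36 times the water signal in Luohan No.2 and 2.68 times in Chinese Spring, which is 1.24 and 1.42 on the log2 scale. Its other probe set, marked by its _x_at suffix as able to cross-hybridise, had 1912.8 on the PEG array and 779.3 on the water array of Luohan No.2, and 1215.6 on the PEG array and 426.4 on the water array of Chinese Spring. By this probe set the PEG signal was 2.45-fold higher in Luohan No.2 and was 2.85-fold higher in Chinese Spring. Both probe sets were designed on the same sequence and may share probes, so they are not 2 separate measurements of the gene.

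Variation between plants cannot be estimated from single arrays, so these folds have no replicate check. Probe sets that share a sequence cluster gave a yardstick of noise between probe sets, the same-cluster SD of log2 differences. It also holds differences between homoeologues and splice forms. An array effect shared by all probe sets of a cluster does not enter it, and such probe sets may share probes, so array noise can be larger. For the PEG change the same-cluster SD was 0.58 in Luohan No.2 and 0.51 in Chinese Spring over probe sets above the floor. Over those brighter than 100 it was 0.43 in Luohan No.2 and 0.28 in Chinese Spring. Changes of XIP-I were larger than these SDs in both cultivars. They differed between the cultivars by -0.18 (Luohan No.2 minus Chinese Spring, log2 scale) for the brighter probe set and -0.22 for the other, less than the SD of such differences, 0.47 above a signal of 100 on all 4 arrays.

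With each gene taken by its brightest probe set, XIP-I was the 1 gene at least 2-fold higher in PEG, of 3 measured in Luohan No.2 and of 2 measured in Chinese Spring. Over the whole array, the share of measured probe sets that were at least 2-fold higher in PEG was 7.66% in Luohan No.2 and 9.9% in Chinese Spring, and 2.54% were so in both. Among probe sets with signals above 100 on both arrays, these shares were 5.31% in Luohan No.2 and 4.9% in Chinese Spring. A PEG change at least as high as that of the brighter XIP-I probe set was found in 2.87% of those bright probe sets in Luohan No.2 and in 2.45% in Chinese Spring.

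Between the cultivars, XIP-I was within 2-fold. The brighter probe set was 1.42-fold higher in Luohan No.2 in PEG and 1.61-fold higher in water, and the other was 1.57-fold and 1.83-fold higher in PEG and in water. The log2 differences of the brighter probe set, 0.51 in PEG and 0.69 in water, compare with a same-cluster SD above a signal of 100 of 0.46 in PEG and 0.35 in water. Sequence variants between the cultivars that alter hybridisation enter every such difference.

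PR5 had a higher signal in Luohan No.2 than in Chinese Spring in both conditions. Its probe set had signals of 440.3 in PEG and 291.2 in water in Luohan No.2, against 97.3 in PEG and 123.3 in water in Chinese Spring. Both Luohan No.2 arrays lay above both Chinese Spring arrays, with PEG above water in Luohan No.2 and below it in Chinese Spring.

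In PEG the PR5 signal was 4.53-fold higher in Luohan No.2 than in Chinese Spring, and in water 2.36-fold higher. On the log2 scale these are 2.18 and 1.24, where the same-cluster SD above the floor was 0.65 in PEG and 0.57 in water. In each condition, 1 gene of the 3, PR5, had a signal measured as at least 2-fold higher in Luohan No.2. The background share of probe sets at least 2-fold higher in Luohan No.2 was 6.8% in PEG and 6.16% in water, and 2.12% of probe sets were so in both. Among all measured probe sets, 0.957% had a cultivar difference in PEG at least as high as that of PR5, and 4.03% in water.

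In Luohan No.2 the PR5 signal in PEG was 1.51-fold that in water, a log2 change of 0.60. In Chinese Spring the log2 change was -0.34, a signal 1.27-fold lower in PEG. The first is close to the same-cluster SD of 0.58 above the floor, where that above a signal of 100 was 0.43. The second is below the SD of 0.51 above the floor. The difference between the 2 changes, 0.94, is above the SD of such differences over probe sets above the floor on all 4 arrays, 0.69, and could not be tested. A change above 0 in Luohan No.2 with one below 0 in Chinese Spring, of any size, was found in 23.9% of the probe sets measured in both cultivars. Opposite signs in either order were found in 43.7% of the probe sets above the floor on all 4 arrays.

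**Figure D2:**
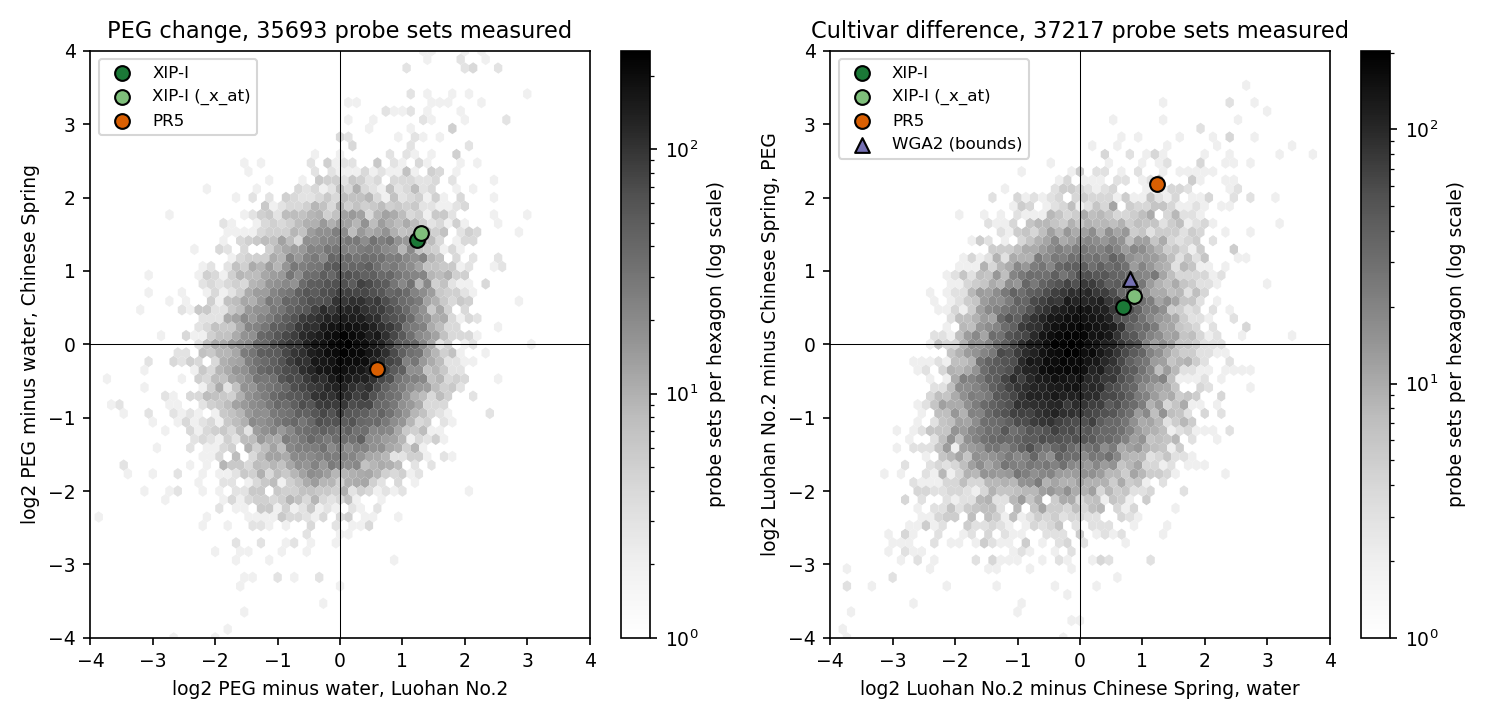
Log2 PEG change in Luohan No.2 (x) and Chinese Spring (y) on the left, and log2 difference of Luohan No.2 from Chinese Spring in water (x) and PEG (y) on the right, for all measured probe sets (grey hexagons, counts on a log scale) and the 3 genes (coloured). XIP-I lies at 1.24 and 1.42 among probe sets higher in PEG in both cultivars, and PR5 lies at 1.24 and 2.18 among those higher in Luohan No.2 in both conditions. Points of WGA2 are lower bounds.

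WGA2 was near or below background. Its probe set had signals of 19.7 in PEG and 18.4 in water in Luohan No.2, against 4.5 in PEG and 1.3 in water in Chinese Spring. Only the Luohan No.2 arrays were above the floor of 10.6, so the level in Chinese Spring is known only as a bound and its PEG change there was not measured. The Luohan No.2 signal was at least 1.86-fold higher than that of Chinese Spring in PEG and at least 1.74-fold higher in water, which leaves a 2-fold difference unsettled. Whether it passed 2-fold depended on the processing. Flooring at the 20th percentile gave a log2 difference of 2.13 in PEG and at least 2.72 in water, and quantile normalization gave at least 1.11 in PEG and at least 1.02 in water.

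Within Luohan No.2 the WGA2 signals in PEG and water differed by 1.07-fold, or 0.10 on the log2 scale, well within the same-cluster SD of 0.58. At such signals the value also depends on the mismatch subtraction of MAS5. Isolectins of wheat germ agglutinin are close relatives, so the probes may bind several of them.

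Over the 3 genes, the median log2 PEG change in Luohan No.2 was 0.60 with all 3 above 0, beside a median of 0.02 over all measured probe sets. In Chinese Spring 2 genes were measured, 1 above and 1 below 0. The median difference of Luohan No.2 from Chinese Spring was 0.89 in PEG and 0.80 in water, both the bounds of WGA2, beside medians of -0.20 and -0.22 over all measured probe sets. All 3 genes were above 0 in both conditions, WGA2 by bounds. The share of all probe sets above 0 was not taken. With the genes chosen by these signals, the counts above and below 0 carry no weight.

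No other probe set of the array belonged to the same sequence clusters as the 3 genes. Patterns were compared with the 55 other named genes above the floor on all 4 arrays, by the root mean square difference of centred log2 signals. Those most like XIP-I were 1-FEH, PCS1 and TaTPC1, with differences of 0.46, 0.53 and 0.54. For 1-FEH, a fructan exohydrolase, the log2 PEG change was 1.06 in Luohan No.2 and 0.19 in Chinese Spring. Even the nearest pattern among these 55 genes therefore departed from that of XIP-I, and unnamed probe sets were not searched. PR5 was nearest to GA20ox1b, H2A-9 and wcH2B-8, with differences of 0.43, 0.57 and 0.60. GA20ox1b, a gibberellin 20-oxidase, had signals of 37.7 in PEG and 21.0 in water in Luohan No.2, against 14.7 in PEG and 15.6 in water in Chinese Spring. WGA2, at the floor on 2 arrays, has no such pattern.

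Other defence genes were taken from a list of symbols, of which 5 genes with 9 probe sets matched the annotation. They were the thionins THI1.1, THI1.2 and THI1.3, and PER1 and Glc1. The match was by symbol or synonym alone, and whether PER1 and Glc1 act in defence was not checked. By their brightest probe sets, PEG signals at least 2-fold higher were found for 1 of 4 measured genes in Luohan No.2 and for 2 of 5 in Chinese Spring, where 7.66% and 9.9% of all measured probe sets were that much higher. Signals at least 2-fold lower were found for 0, where 10.1% of all measured probe sets were that much lower in Luohan No.2 and 10.6% in Chinese Spring. Their median log2 PEG change was 0.47 in Luohan No.2. In Chinese Spring it was at most -0.05, a bound set by THI1.3, whose signal in PEG was below the floor. Glc1 was the gene past 2-fold in both cultivars, with signals of 260.7 in PEG and 62.8 in water in Luohan No.2, against 679.5 in PEG and 108.7 in water in Chinese Spring. PER1 had 51.6 in PEG and 37.8 in water in Luohan No.2, against 126.5 in PEG and 49.2 in water in Chinese Spring.

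None of these 5 genes had a higher signal in Luohan No.2 in water by its brightest probe set. For THI1.3 this rests on a log2 bound of -0.05 at the floor. The median over all measured probe sets in water was also below 0, at -0.22. Signals at least 2-fold lower in Luohan No.2 were found in PEG for 2 of the 4 measured genes, Glc1 and PER1, and in water for 2 of 5, THI1.1 and THI1.2. The background shares of probe sets at least 2-fold lower in Luohan No.2 were 16.3% in PEG and 15.2% in water. Thionins are small, cysteine-rich antimicrobial peptides. THI1.2 had signals of 68.3 and 127.9 in Luohan No.2 and Chinese Spring in PEG and of 48.6 and 227.8 in water. THI1.1 had 93.6 and 93.3 in Luohan No.2 and Chinese Spring in PEG and 80.1 and 182.2 in water, while its dimmer probe set had 18.5 and 36.3 in PEG and 16.3 and 46.3 in water. The THI1.3 probe sets reached at most 11.0 on any array. The dimmer PER1 probe set was 1.76-fold lower in PEG in Luohan No.2, where the brighter was 1.37-fold higher.

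**Figure D3:**
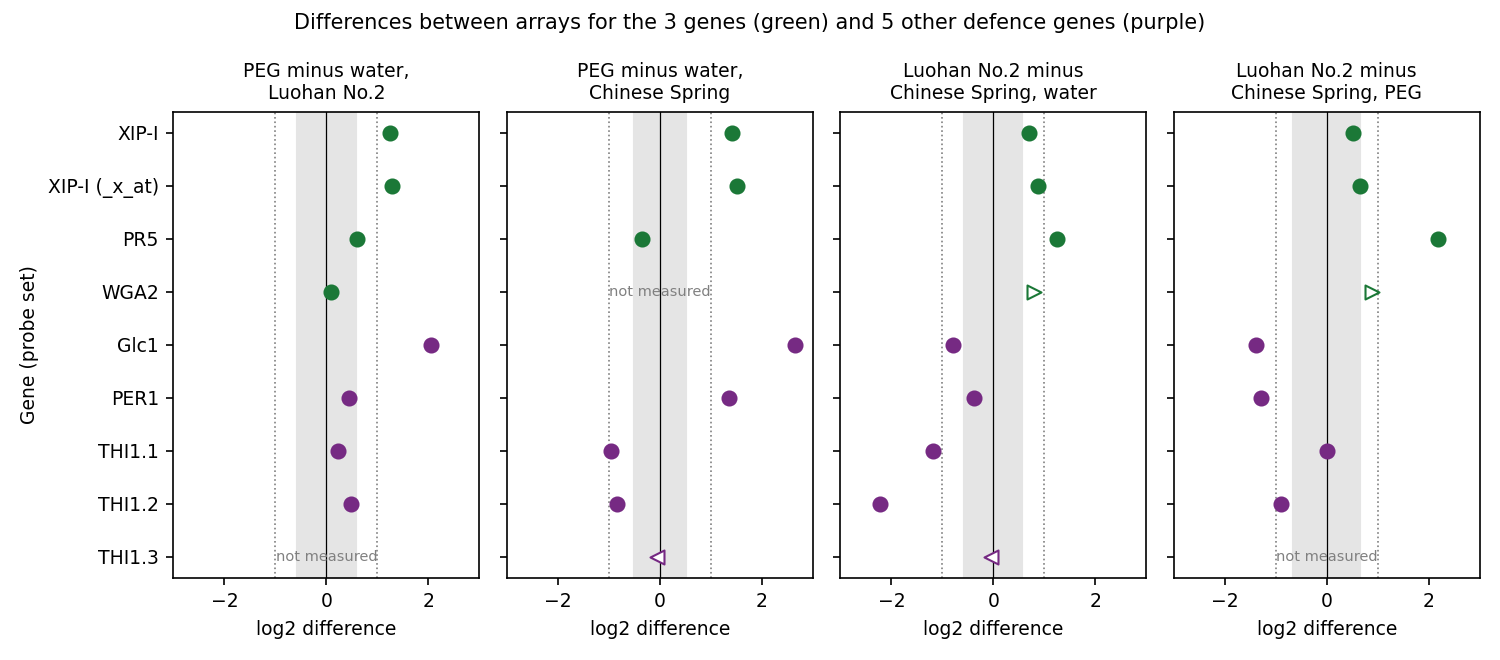
Log2 differences for the 4 probe sets of the 3 genes (green) and for the brightest probe set of 5 other defence genes (purple) in the 4 comparisons. Open triangles are bounds, grey bands are 1 same-cluster SD either side of 0, and dotted lines mark 2-fold. XIP-I passed 2-fold for PEG in both cultivars, PR5 passed it between the cultivars in both conditions, and THI1.1 and THI1.2 lay on the opposite side from PR5 in water.

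Completeness of the labelled RNA can be read from control genes with probes at both ends. Of 6 wheat control genes, 3 had the lowest ratio of the 5' to the 3' end on the Luohan No.2 PEG array and 3 had the highest there. The first 3 were those with both ends above the floor on all arrays, and the others, actin, ef1a and gapdh, had an end at or below it on at least 1 array. Among the first, for sucrose synthase the 5' end gave, relative to the 3' end, 0.0216 and 0.0554 on the Luohan No.2 PEG and water arrays and 0.0693 and 0.0805 on the Chinese Spring PEG and water arrays. Of the bacterial and phage controls, dap had 5' to 3' ratios of 0.0598 and 0.0760 on the Luohan No.2 PEG and water arrays. On the Chinese Spring PEG and water arrays it had 0.320 and 0.372. Ratios of thr, phe and lys were also lower on both Luohan No.2 arrays, though the 5' end of phe was below the floor there. Those of bioB, bioC, bioD and cre differed little. The part of labelling in the differences given here, cultivar differences included, was not tested. Of 9 green leaf markers 7 matched, with a summed signal of 2747.4 and 2969.0 in Luohan No.2 PEG and water and 8136.8 and 8709.1 in Chinese Spring, most of it from the Rubisco subunit gene rbcL, and 4 and 3 of the 7 were at or below the floor in Luohan No.2 against 0 in Chinese Spring. Their part in the cultivar differences was not tested. Of 6 root markers 2 matched. TaDMAS1, an enzyme of phytosiderophore synthesis, had signals between 295.4 and 419.3, and TaALMT1, a malate transporter, between 10.6 and 66.8.

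The differences of XIP-I and PR5 moved little with the processing. Over 8 settings of floor, pseudocount, scaling and probe set filter, the PEG change of the brighter XIP-I probe set was between 1.22 and 1.31 in Luohan No.2 and between 1.39 and 1.49 in Chinese Spring, on the log2 scale. The PR5 difference between the cultivars was between 2.01 and 2.26 in PEG and between 1.14 and 1.31 in water.

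**Figure D4:**
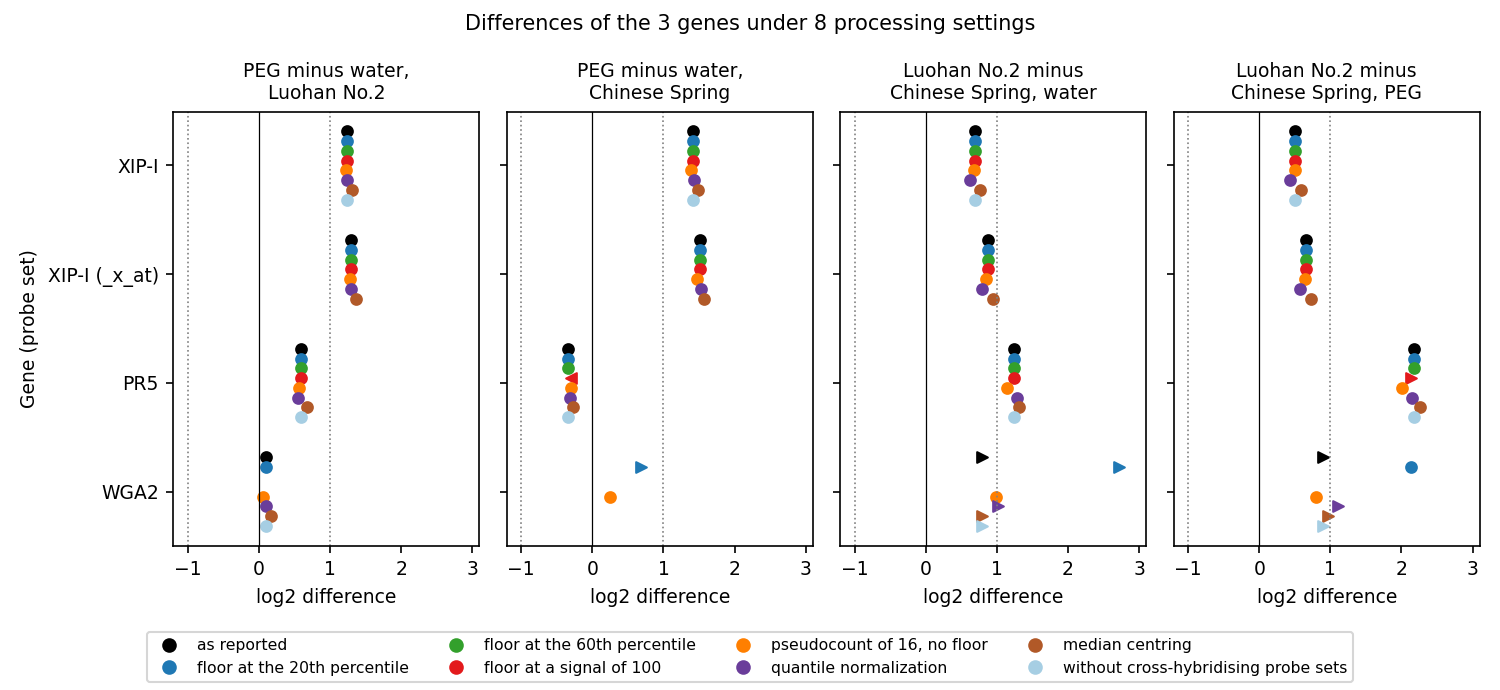
Log2 differences of the 4 probe sets in the 4 comparisons under 8 processing settings (colours), with triangles for bounds and dotted lines at 2-fold. XIP-I and PR5 lay on the same side of the 2-fold lines under all settings that gave a value, while the WGA2 difference between cultivars spread from 0.80 to 2.72 in water and from 0.80 to 2.13 in PEG.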

How the data were processed

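Biotin-labelled cRNA made from total RNA of roots was hybridised to 4 arrays. The deposited values were linear intensities made by the authors with MAS5, per the submitters' processing notes, which name no version. Their 2% trimmed mean was 100.02 on every array. No detection calls were used.

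Of 61290 probe sets, 111 controls were set aside. Intensities were floored at the 40th percentile (10.6) before log2. Where both arrays were at the floor there was no measurement, and where 1 was, the difference is a bound. Differences are 1 array minus 1 array, without a test, and a call is a difference of at least 2-fold. The same-cluster SD pools log2 differences within clusters sharing a Ta number. Its arithmetic was checked on simulated data with independent noise, without shared probes or array effects. Of 771 annotated genes, 770 matched the RefSeq table and 102 were named.

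Genes named were all probe sets of PR5, XIP-I and WGA2, the 3 genes most alike in pattern, and the matched defence list. These genes and lists were chosen with earlier results of these arrays known. The number of arrays limits the precision. Python 3.11.15, numpy 2.4.6 and pandas 2.3.3 were used.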

Additional observations from a re-analysis of the deposited data

Results flagged for a closer look

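Of the 13 probe sets of PR5, XIP-I, WGA2 and the other defence genes, 9 were above the floor on all 4 arrays, and for 5 of these the PEG change had opposite signs in the 2 cultivars. Over all probe sets above the floor on all 4 arrays the share was 43.7%. None of these differences was tested, as each rests on 4 arrays without replicates. For PR5 the change in Luohan No.2 minus that in Chinese Spring was 0.94 on the log2 scale. It was 1.19 for the brighter and 0.53 for the dimmer THI1.1 probe set and 1.32 for THI1.2, all with the higher change in Luohan No.2. For the dimmer PER1 probe set it was -1.83, with the higher change in Chinese Spring. The same-cluster SD of such differences above the floor on all 4 arrays was 0.69.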

How the results depend on the processing

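The XIP-I and PR5 differences moved by less than the same-cluster SD under all 7 alternatives that gave them a value. Only the pseudocount, the rescaling of arrays and, for PR5 in Chinese Spring PEG, the floor of 100 could move them at all. Flooring at the 20th percentile gave a WGA2 difference between the cultivars of 2.13 in PEG and at least 2.72 in water on the log2 scale, and quantile normalization gave bounds of 1.11 and 1.02. The PEG change of WGA2 in Chinese Spring, not measured otherwise, was at least 0.68 with that floor and 0.24 with the pseudocount of 16. At the 60th percentile and at 100 the WGA2 probe set gave no value.

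Counts of probe sets at least 2-fold apart depended on the floor. With the floor at the 20th percentile, 9033 were higher and 9100 lower in PEG in Luohan No.2, 10722 and 10363 in Chinese Spring, and 7660 were higher and 14449 lower in Luohan No.2 than in Chinese Spring in PEG, and 7248 and 13985 in water. With the floor at the 60th percentile these pairs were 1547 and 2294, 1777 and 1976, 1828 and 2670, and 1577 and 2067. With the floor at 100 they were 822 and 1099, 948 and 851, 1005 and 990, and 788 and 639. With the pseudocount 1684 were higher and 2430 lower in PEG in Luohan No.2, 3004 and 3010 in Chinese Spring, and 4455 and 3833 were lower in Luohan No.2 than in Chinese Spring in PEG and in water. After quantile normalization 4449 and 3634 were lower in Luohan No.2 in PEG and in water, and 49.2% and 50.8% of the probe sets 2-fold apart were higher in Luohan No.2, against 29.5% and 28.9% as reported. Without probe sets with an _x_at, _s_at or _a_at suffix 2277 of 27806 measured were lower in PEG in Luohan No.2, against 3870 of 38468 as reported. The number measured also moved with the floor. For the PEG change in Luohan No.2 it was 53470 at the 20th percentile, 25137 at the 60th and 14667 at 100.

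Among the other defence genes, 1 was lower in PEG in each cultivar with the floor at the 20th percentile. With the floor at 100, 1 was higher in PEG in Chinese Spring and 1 lower in Luohan No.2 in each condition. Without probe sets marked for cross-hybridisation, 0 were higher in PEG in Luohan No.2 and 1 in Chinese Spring, and 1 was lower in Luohan No.2 in each condition. With the mean over probe sets, 1 was lower in Luohan No.2 in PEG. The gene lower in PEG with the floor at the 20th percentile was THI1.3, with signals of at most 11.0. At 100, PER1 no longer passed 2-fold for PEG in Chinese Spring, as its water signal of 49.2 was floored. By the mean, Glc1 was no longer 2-fold lower in Luohan No.2 in PEG, as its dimmer probe set, near the floor, was averaged in. No paired analysis was possible because each group is 1 array.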
